A study of Mus musculus with 81 samples.

Results

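Mitochondrial carriers of the Slc25 family were described in hearts of BXD mice: every gene whose symbol starts with Slc25a in the array's probe annotation, 46 of the 22180 genes measured. The members were chosen by symbol alone. Each had 1 probe set that names a single gene, and all 46 symbols matched a RefSeq entry by Entrez ID. A further probe set that names Slc25a35 together with Rangrf was not used.

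Carriers of this family are small proteins that sit in the inner mitochondrial membrane, with a few members in the outer membrane or in peroxisomes. They exchange ADP for ATP and bring in phosphate, organic acids, amino acids, acylcarnitines, cofactors and iron. The heart makes nearly all of its ATP in mitochondria and burns mainly fatty acids, so it depends on the ADP/ATP carriers, the phosphate carrier, the carnitine-acylcarnitine carrier and the carriers of the malate-aspartate shuttle.

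The series holds 81 heart arrays, 42 from mice on chow and 39 from mice on a high fat diet. BXD strains are recombinant inbred lines descended from C57BL/6J and DBA/2J, so every strain carries a fixed mosaic of the 2 parental genomes. On both diets 39 strains were measured, 37 BXD strains and the 2 parents, and the strains BXD60, BXD79 and BXD92a were measured on chow alone. Each array was made from heart RNA pooled from about 5 males, aged 29 weeks and killed after an overnight fast. No group carries a transgene or a drug. A strain on a diet is 1 array, so both arrays of a strain differ in diet and pool at once, and replicate pools of a strain on one diet are not present. The diet is taken from each sample's own diet label, because the protocol text attached to all samples describes chow alone.

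Values were on the deposited scale, on which each array has mean 8 and SD 2 over its probe sets. They are called units here, with no fold changes, because no source used here gives the base of the logarithm. Arrays correlated with each other at r = 0.969 to 0.992 over all genes. The 10 cardiomyocyte markers lay at or above percentile 91.8 of genes. Atrial markers varied widely, with an array mean of 9.17 to 13.5 units, and liver markers were high on a few arrays. In pooled tissue, fewer cells of a type and less RNA per cell cannot be told apart.

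Promoter sequence is shown for 5 members on which the results below turn: the 3 ADP/ATP carriers, the carnitine-acylcarnitine carrier Slc25a20 and the aspartate-glutamate carrier Slc25a13. Each stretch is the 120 bases before the RefSeq start in GRCm38.p6, read 5′ to 3′ on the gene's strand. Slc25a4 lies at chr8:46211063-46211182 on the minus strand, and Slc25a5 at chrX:36795477-36795596 on the plus strand. Slc25a31 lies at chr3:40708751-40708870 on the plus strand. Slc25a20 lies at chr9:108662016-108662135 on the plus strand, and Slc25a13 at chr6:6217174-6217293 on the minus strand. Capitals mark the searched motifs on either strand: the GC box GGGCGG, the CCAAT box, and the NRF1 core GCATGCGC.
Slc25a4: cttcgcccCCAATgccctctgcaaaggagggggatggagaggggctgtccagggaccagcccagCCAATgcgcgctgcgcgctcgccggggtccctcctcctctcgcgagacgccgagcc
Slc25a5: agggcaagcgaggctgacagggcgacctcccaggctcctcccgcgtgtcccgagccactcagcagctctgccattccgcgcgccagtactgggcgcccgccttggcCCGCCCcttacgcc
Slc25a31: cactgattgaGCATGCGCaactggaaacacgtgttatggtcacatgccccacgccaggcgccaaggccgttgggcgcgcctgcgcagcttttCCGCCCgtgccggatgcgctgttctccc
Slc25a20: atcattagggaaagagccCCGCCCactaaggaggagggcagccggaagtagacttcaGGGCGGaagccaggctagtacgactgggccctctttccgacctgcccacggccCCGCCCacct
Slc25a13: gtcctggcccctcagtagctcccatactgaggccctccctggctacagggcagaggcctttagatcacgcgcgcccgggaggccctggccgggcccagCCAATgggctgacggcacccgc
In these stretches Slc25a4 holds CCAAT boxes and no GC box, Slc25a5 holds a GC box and no CCAAT box, and Slc25a31 holds an NRF1 core and a GC box. The same motifs were searched on both strands in windows of 300 bases, 250 before and 50 after a start, which RefSeq's table gives for 36 of the 46 members and for 27025 genes in all. A gene can have several windows and was counted once if any of them held the motif. The GC box was in 30 of the 36 members (83.3%) and in 38.2% of all these genes. Slc25a4 was among the 30, with a GC box after its start and so outside the stretch shown. CCAAT was in 19 members (52.8%) and in 41.1% of all these genes, and TATAAA was in 2 members (5.56%) and in 15.7% of all these genes. The NRF1 core, bound by a regulator of nuclear genes for mitochondrial proteins, was in Slc25a31 and Slc25a54 (5.56%), against 3.05% of all these genes. The YY1 motif AAGATGGCG was in Slc25a3, against 1.64% of all these genes. The nuclear receptor site AGGTCA was in 4 members (11.1%: Slc25a34, Slc25a39, Slc25a45 and Slc25a47), against 18.1% of all these genes. The longer ERR element TCAAGGTCA, which contains that site and is in 0.466% of all these genes, was in no member's window, and the same held for the direct repeat of the site known as DR1 (0.0481% of all these genes). A match is a run of letters and not a bound site.

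Of the 46 carriers, 35 lay above the median gene level of 8.18 units, 10 lay in the top 5% of genes and 4 in the top 1%. The probe sets of Slc25a11 (the oxoglutarate/malate carrier), Slc25a5 and Slc25a4 (ADP/ATP carriers), Slc25a3 (the phosphate carrier) and Slc25a12 (an aspartate-glutamate carrier) read highest, between percentiles 98.9 and 99.6. Slc25a20, Slc25a46, Slc25a42, Slc25a39 and Slc25a13 followed, all still in the top 5% of genes. Slc25a46 is an outer membrane member involved in mitochondrial shape, Slc25a42 carries coenzyme A, and Slc25a39 is a glutathione carrier. The lowest was Slc25a21, the oxoadipate carrier, at the 10th percentile. Slc25a31, an ADP/ATP carrier best known from testis, was at percentile 34.3. A percentile places a probe set among all probe sets, and brightness also depends on the probes, so neighbours in this order are not ranked as transcripts.

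**Figure D1:**
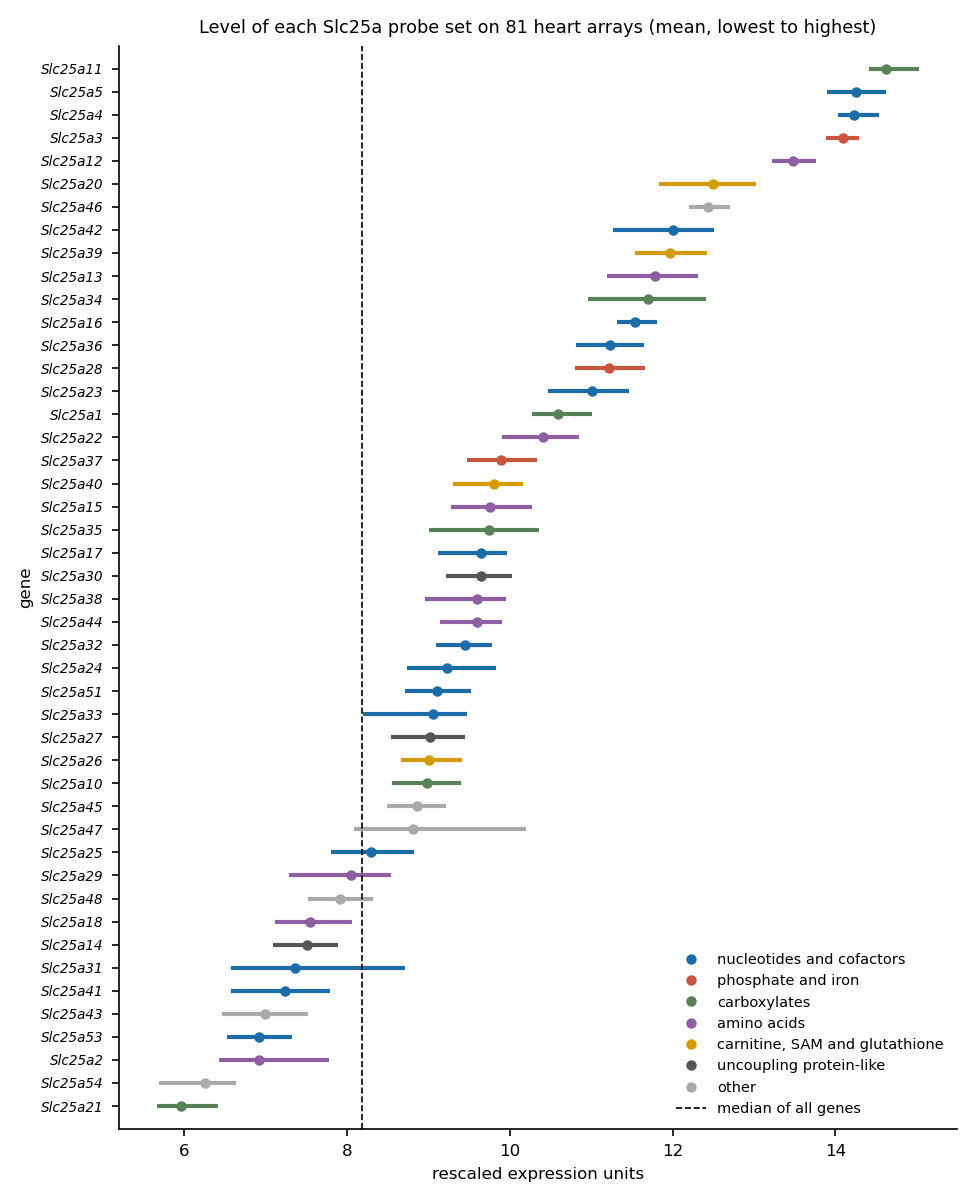
Level of each of the 46 carriers in units over the 81 arrays, brightest first (points for the mean, lines from the lowest to the highest array, colours for the role), with the median gene level of 8.18 units as a dashed line. The oxoglutarate/malate, ADP/ATP, phosphate and aspartate-glutamate carriers lie at the top and Slc25a21 at the bottom.

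The first comparison asked which carriers differed between high fat diet and chow within the 39 strains. On high fat diet 10 carriers rose, 11 fell and 25 did not pass the test (limma paired by strain, Benjamini-Hochberg adjusted p under 0.05 over all genes). That is 45.7% of members, beside 45.0% of all genes called, 23.8% higher and 21.2% lower. The family as a whole was therefore called as often as genes in general. Of the carriers above the median level 19 of 35 were called (54.3%), beside 41.9% of all genes above it. With the mean of all genes on an array as a covariate the split was 8 rises and 14 falls. The members' median difference was -0.03 units, and that of all genes was 0.01 units. The called differences were small, between 0.08 and 0.46 units in size. Probe sets for 92 ERCC sequences, which match no mouse gene, gave a measure of what the arrays show without a mouse transcript: 37 of them (40.2%) were called by the same test, at a mean level of 5.96 units. Of those controls 95% differed by less than 0.247 units, and Slc25a31 was the one called carrier beyond that size. The part of whatever moves these controls in the smaller carrier differences was not tested. For every carrier the lowest to highest values on chow and on high fat diet overlapped. Most calls did not need the pairing by strain: without strain in the model, over 81 arrays, 17 of the 21 were kept.

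**Figure D2:**
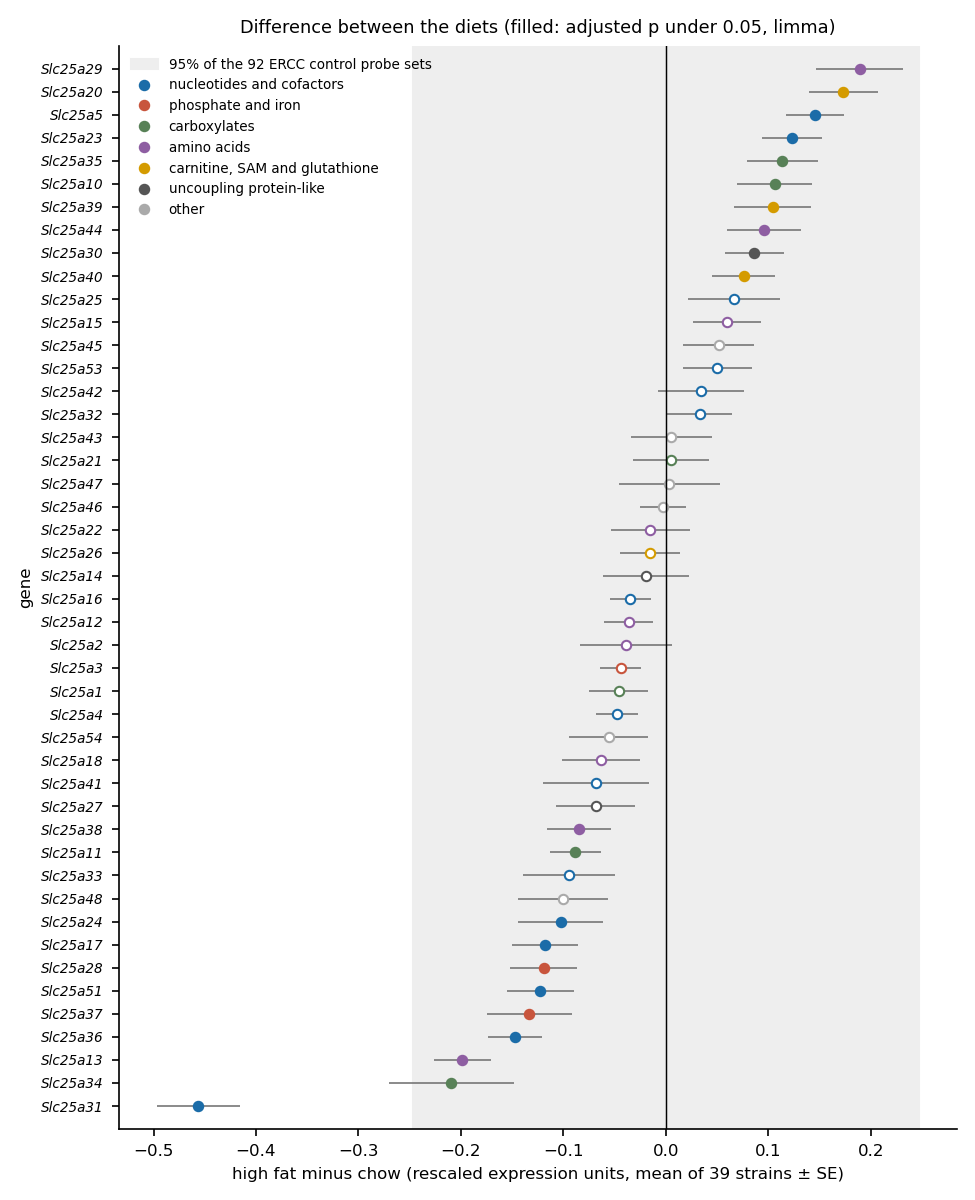
High fat minus chow difference of each of the 46 carriers in units, sorted by size (points for the mean of 39 strains, lines for ± 1 SE, filled where the limma adjusted p is under 0.05, colours for the role), with the range that holds 95% of the ERCC control differences shaded. Slc25a31 lies lowest at -0.46 units, outside the shading, and Slc25a29, Slc25a20 and Slc25a5 are the highest.

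The 3 ADP/ATP carriers, which exchange cytosolic ADP for ATP made in the matrix, did not move together. Slc25a5, the isoform found in most tissues, ranged from 13.90 to 14.43 units on chow (median 14.17) and from 13.93 to 14.62 units on high fat diet (median 14.33). The ranges overlapped, yet 32 of 39 strains were higher on high fat diet. The difference was 0.15 ± 0.03 units (SE, n = 39 strains, limma adjusted p = 5.31e-05). Slc25a4, the isoform of heart and skeletal muscle, ranged from 14.08 to 14.44 units on chow (median 14.27) and from 14.04 to 14.54 units on high fat diet (median 14.19). Its difference of -0.05 ± 0.02 units did not pass (adjusted p = 0.0554), with 25 strains lower. It did pass, as a decrease, in 5 of 10 other fits, at adjusted p from 0.0106 to 0.0439. With the cardiomyocyte marker mean as a covariate it was -0.01 units (adjusted p = 0.866). Slc25a31 ranged from 7.07 to 8.71 units on chow (median 7.54) and from 6.57 to 8.46 units on high fat diet (median 7.04). It fell by 0.46 ± 0.04 units (adjusted p = 3.04e-12), was lower in 36 of 39 strains, and had the lowest p of the family. In C57BL/6J it went from 7.54 to 6.67 units, and in DBA/2J it was 7.52 and 7.58 units.

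The unequal movement of these isoforms was tested directly, in a set of 11 pairs of related carriers picked after the values were seen. In each strain the diet difference of one gene was subtracted from that of the other, and the signs were permuted (100000 draws, two-sided, Benjamini-Hochberg over the 11 pairs). Slc25a5 minus Slc25a4 was 0.19 ± 0.03 units (95% interval 0.13 to 0.25), above 0 in 33 of 39 strains (permutation p = 1e-05, the smallest possible, adjusted 2.75e-05). Slc25a31 minus Slc25a4 was -0.41 ± 0.04 units (95% interval -0.48 to -0.33, permutation adjusted p = 2.75e-05), below 0 in 36 strains. Slc25a31 minus Slc25a5 was -0.60 ± 0.04 units and below 0 in all 39 strains, with the same permutation p. The diet difference of Slc25a5 thus ran above that of Slc25a4 in most strains and above that of Slc25a31 in all of them. Other pairs of the 11 did not pass (permutation adjusted p from 0.449 to 0.801). These were Slc25a23 with Slc25a25, Slc25a36 with Slc25a33, Slc25a39 with Slc25a40, Slc25a18 with Slc25a22, Slc25a20 with Slc25a29, and the mitoferrins given below.

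**Figure D3:**
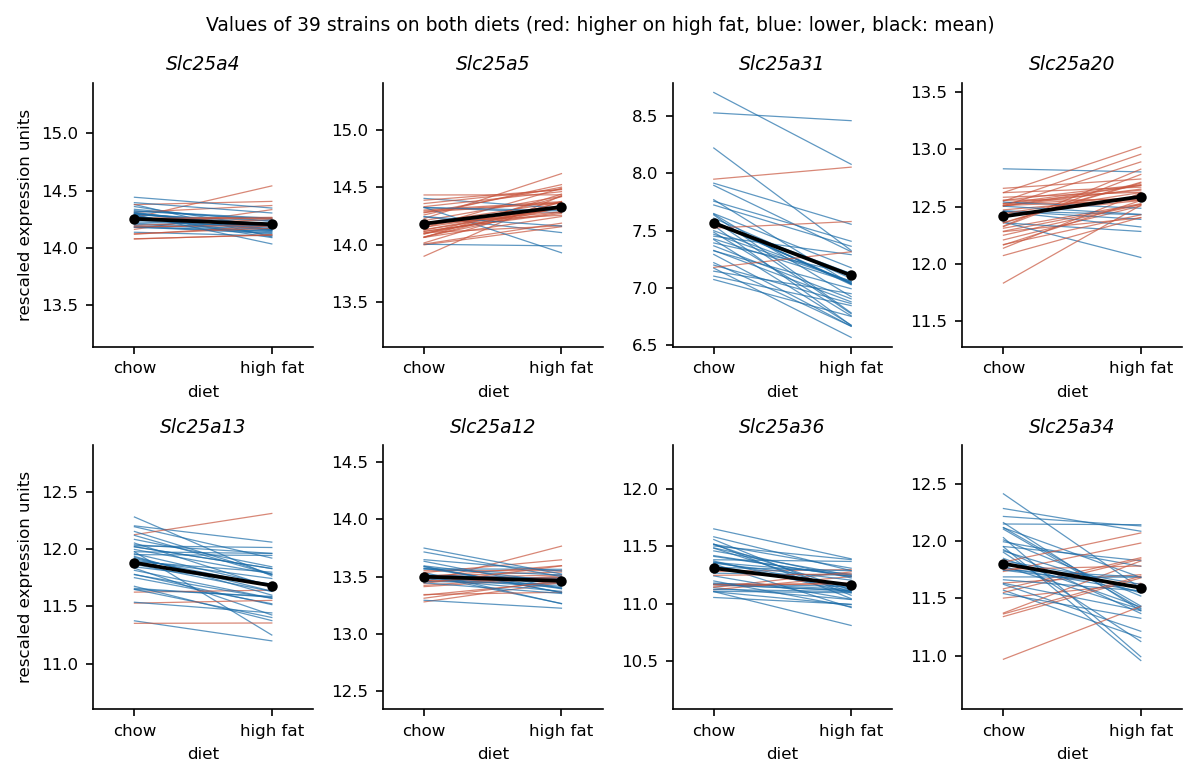
Level on chow and on high fat diet in units for 8 carriers, each line joining the arrays of 1 of the 39 strains (red where higher on high fat diet, blue where lower) and black points for the means, with every panel spanning the same number of units. Most lines climb for Slc25a5 and Slc25a20 and descend for Slc25a31 and Slc25a13, while the ranges of the diets overlap in every panel.

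Other carriers listed under nucleotides and cofactors moved both ways: of 12 measured beside the ADP/ATP carriers, 1 rose, 4 fell and 7 did not pass. Their median difference was -0.05 units. Beside this group and those below, 23.8% of all genes were called higher and 21.2% lower. The groups follow listed roles, and the substrate is not established for every member. Slc25a36, a pyrimidine nucleotide carrier, ranged from 11.05 to 11.65 units on chow (median 11.32) and from 10.81 to 11.39 units on high fat diet (median 11.15). It fell by 0.15 ± 0.03 units (adjusted p = 1.48e-05) and was lower in 33 strains. Slc25a51, the mitochondrial NAD carrier, ranged from 8.79 to 9.52 units on chow (median 9.17) and from 8.72 to 9.27 units on high fat diet (median 9.06). It fell by 0.12 ± 0.03 units (adjusted p = 0.00209), lower in 29 strains. Slc25a17, the peroxisomal carrier of cofactors, fell by 0.12 ± 0.03 units (adjusted p = 0.00276), lower in 26 strains. The member of this group that rose was Slc25a23, an ATP-Mg/phosphate carrier. Slc25a23 ranged from 10.46 to 11.30 units on chow (median 10.97) and from 10.68 to 11.46 units on high fat diet (median 11.05), a rise of 0.12 ± 0.03 units (adjusted p = 0.000645) seen in 30 strains. Its paralogue Slc25a24 fell by 0.10 ± 0.04 units (adjusted p = 0.0407), lower in 26 strains. That call ended when any of 16 single strains was left out, and without strain in the model (adjusted p = 0.0639). The difference between these paralogues was 0.23 ± 0.05 units (95% interval 0.13 to 0.32) and above 0 in 30 strains (permutation adjusted p = 8.8e-05). The coenzyme A carrier Slc25a42, bright in heart, differed by 0.03 ± 0.04 units and did not pass (adjusted p = 0.529).

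Of the phosphate and iron carriers, both mitoferrins fell and the phosphate carrier did not pass. Mitoferrins bring iron into the matrix for heme and iron-sulfur clusters. Slc25a28, mitoferrin 2, ranged from 10.999 to 11.66 units on chow (median 11.30) and from 10.80 to 11.58 units on high fat diet (median 11.11), a fall of 0.12 ± 0.03 units (adjusted p = 0.0029) with 28 strains lower. Slc25a37, mitoferrin 1, ranged from 9.48 to 10.33 units on chow (median 9.97) and from 9.47 to 10.12 units on high fat diet (median 9.82), a fall of 0.13 ± 0.04 units (adjusted p = 0.00792) with 29 strains lower. The mitoferrins' differences were 0.01 ± 0.05 units apart (95% interval -0.10 to 0.12, permutation adjusted p = 0.801), which bounds how far they can differ and does not show them equal. Mitoferrin 1 is abundant in erythroid cells: of 10 erythroid markers listed 2 were measured, Slc4a1 fell by 0.14 units and Epb42 did not pass. With 4 marker means, erythroid included, as covariates both mitoferrins stayed called, and with adipocyte, macrophage, fibroblast and endothelial means neither was (adjusted p = 0.354 for Slc25a28 and 0.288 for Slc25a37). Slc25a3, which brings in the phosphate used for ATP synthesis, ranged from 13.95 to 14.24 units on chow (median 14.12) and from 13.88 to 14.29 units on high fat diet (median 14.08), with a difference of -0.04 ± 0.02 units (adjusted p = 0.0706).

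Among 6 carriers listed under carboxylates 2 rose, 2 fell and 2 did not pass, beside 23.8% of all genes called higher and 21.2% lower. Slc25a34 and its relative Slc25a35 are on this list, though the substrate of Slc25a34 is poorly known. Slc25a11, which exchanges oxoglutarate for malate in the malate-aspartate shuttle, ranged from 14.51 to 14.91 units on chow (median 14.67) and from 14.42 to 15.03 units on high fat diet (median 14.57). It fell by 0.09 ± 0.03 units (adjusted p = 0.00406) and was lower in 31 strains. Cardiomyocyte markers moved with it: 6 of 10 fell, the others did not pass, and their mean was 0.06 units lower, down in 30 strains. With that mean as a covariate, chosen after seeing the data, the difference of Slc25a11 was -0.03 units (adjusted p = 0.336). Slc25a34, a carrier whose substrate is poorly known, ranged from 10.97 to 12.41 units on chow (median 11.78) and from 10.96 to 12.14 units on high fat diet (median 11.60). It fell by 0.21 ± 0.06 units (adjusted p = 0.00453), with single strains between -1.04 and 0.46 units. Each of those is 1 array against 1 array, so differences in response between strains were not tested. Its relative Slc25a35 ranged from 9.01 to 10.07 units on chow (median 9.74) and from 9.19 to 10.36 units on high fat diet (median 9.80), and rose by 0.11 ± 0.03 units (adjusted p = 0.00692). Slc25a10, the dicarboxylate carrier, rose by 0.11 ± 0.04 units (adjusted p = 0.016), higher in 24 strains. The citrate carrier Slc25a1, with a median of 10.59 units on both diets, did not pass (adjusted p = 0.195).

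Of 9 amino acid carriers 2 rose, 2 fell and 5 did not pass, beside 23.8% of all genes called higher and 21.2% lower. The 2 aspartate-glutamate carriers export aspartate for the malate-aspartate shuttle. Slc25a13, also called citrin, ranged from 11.35 to 12.28 units on chow (median 11.92) and from 11.20 to 12.31 units on high fat diet (median 11.68). It fell by 0.20 ± 0.03 units (adjusted p = 1.82e-07) and was lower in 35 strains. Slc25a12, also called aralar, ranged from 13.28 to 13.75 units on chow (median 13.50) and from 13.22 to 13.77 units on high fat diet (median 13.47), with a difference of -0.04 ± 0.02 units (adjusted p = 0.223). Slc25a13 minus Slc25a12 was -0.16 ± 0.02 units (95% interval -0.21 to -0.12) and below 0 in 34 strains (permutation adjusted p = 2.75e-05). Slc25a38, the glycine carrier needed for heme synthesis, fell by 0.08 ± 0.03 units (adjusted p = 0.0235), lower in 27 strains. Slc25a44, a carrier of branched-chain amino acids, ranged from 9.14 to 9.89 units on chow (median 9.56) and from 9.23 to 9.91 units on high fat diet (median 9.66), a rise of 0.10 ± 0.04 units (adjusted p = 0.0288). Slc25a29, a carrier of basic amino acids whose level lay just below the gene median, ranged from 7.29 to 8.39 units on chow (median 7.96) and from 7.77 to 8.54 units on high fat diet (median 8.12). It rose by 0.19 ± 0.04 units (adjusted p = 0.000321), higher in 29 strains. The glutamate carrier Slc25a22 had medians of 10.41 units on chow and 10.40 units on high fat diet and did not pass (adjusted p = 0.779).

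Of the 4 carriers of carnitine, S-adenosylmethionine and glutathione, 3 rose and 1 did not pass, with a median difference of 0.09 units. Of all genes 23.8% were called higher, and a group of 4 was not tested as a set. Slc25a20, which takes acylcarnitines into the matrix for oxidation, ranged from 11.84 to 12.83 units on chow (median 12.46) and from 12.06 to 13.02 units on high fat diet (median 12.57). It rose by 0.17 ± 0.03 units (adjusted p = 4.43e-05) and was higher in 31 strains. Slc25a39 ranged from 11.60 to 12.25 units on chow (median 11.91) and from 11.66 to 12.42 units on high fat diet (median 12.06), a rise of 0.10 ± 0.04 units (adjusted p = 0.0206). Its paralogue Slc25a40 ranged from 9.29 to 10.16 units on chow (median 9.74) and from 9.32 to 10.16 units on high fat diet (median 9.84). Its rise of 0.08 ± 0.03 units was the smallest called (adjusted p = 0.0412), and leaving out any of 16 single strains ended the call. Among 3 carriers related to uncoupling proteins, Slc25a30 rose by 0.09 ± 0.03 units (adjusted p = 0.0129), higher in 28 strains. The 6 other or orphan carriers did not pass, Slc25a46 among them with a difference of -0.0024 units (adjusted p = 0.944). Over all uncalled members differences ran from -0.10 to 0.07 units.

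Markers of other cells moved with diet too, beside 23.8% of all genes called higher and 21.2% lower. Of 7 genes listed as adipocyte markers 2 fell and 5 did not pass. Adipoq, the adipocyte hormone adiponectin, fell by 0.85 units and was lower in all 39 strains, and Lpl fell by 0.18 units. Lpl and Fabp4 of this list lay at percentiles 99.9 and 99.6 of genes, in the range of the cardiomyocyte markers, while Adipoq lay at 29.7. Of 8 macrophage markers 5 rose, among them Itgam by 0.27 units and Cd68 by 0.23 units. Of 7 fibroblast markers 3 rose (Col1a1, Lum and Pdgfra), and of 7 endothelial markers Pecam1 and Kdr rose and Tek fell. Of 7 brown adipocyte markers Cidea and Zic1 rose, the list mean was higher in 28 strains, and the 7 atrial markers did not pass. Cox7a1 and Cox8b of the brown adipocyte list lay at percentiles 99.9 and 99.8, also in the range of the cardiomyocyte markers. The means of both adipocyte lists, used as covariates below, are therefore not measures of fat cells alone. With the means of atrial, erythroid, brown adipocyte and liver markers as covariates, 18 carriers were called and 16 of the 21 were kept. Over all genes the share called went from 45.0% to 34.3% in that fit. The calls for Slc25a10, Slc25a30, Slc25a38, Slc25a40 and Slc25a44 ended there, at adjusted p from 0.111 to 0.287. With the brown adipocyte mean alone, chosen after seeing the data, 17 of the 21 were kept, and 37.1% of all genes were called. Slc25a34 was among the calls that ended (adjusted p = 0.0686). With the means of adipocyte, macrophage, fibroblast and endothelial markers as covariates, also chosen after seeing the data, 7 of the 21 were kept, and 19.3% of all genes were called. Those 7 were Slc25a13, Slc25a20, Slc25a24, Slc25a29, Slc25a31, Slc25a36 and Slc25a39, while Slc25a5 had a difference of 0.08 units (adjusted p = 0.221). Slc25a13, Slc25a20, Slc25a29, Slc25a31 and Slc25a36 were called in each of these marker fits.

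Genes that work beside the carriers were counted from lists of the pathway. For comparison, 23.8% of all genes were called higher and 21.2% lower. The counts cover the listed genes that were measured, and no list was tested as a set. Among pyruvate carriers and sideroflexins, some of which carry serine, 4 of 6 fell: Mpc1 by 0.12 units, Sfxn1 by 0.19 units, Sfxn2 by 0.18 units and Sfxn4 by 0.23 units. Of the machinery that imports carriers, outer membrane parts included, 3 of 13 rose (Agk, Timm10 and Timm13), 1 fell (Timm10b, by 0.27 units) and 9 did not pass. Of 6 genes listed for the carnitine shuttle 4 were measured, and Cpt1b and Acsl1 were not. Of those 4 Cpt2, which remakes acyl-CoA in the matrix beside Slc25a20, rose by 0.17 units, and 3 did not pass. Of 4 enzymes of the malate-aspartate shuttle, Got1 and Mdh1 fell, by 0.08 and 0.05 units, and Got2 and Mdh2 did not pass. Of the outer membrane channels Vdac1 fell by 0.05 units, and Vdac2 and Vdac3 did not pass. Of 2 other genes listed with them, which are not such channels, Tspo rose by 0.32 units and Ppif did not pass. Of 6 genes for calcium transport across the inner membrane, Micu3 fell by 0.19 units, Slc8b1 fell by 0.06 units and 4 did not pass. Of 4 family members with other symbols, Mtch1 rose by 0.11 units and Ucp1, Ucp3 and Mtch2 did not pass.

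The second comparison asked which carriers differed among the 39 strains. The 2 arrays of a strain resembled each other beyond those of other strains for 10 of the 46 carriers (21.7%), beside 14.8% of all genes (limma F test over strains with diet in the model, adjusted p under 0.05). Above the median level 9 of 35 carriers were called (25.7%), beside 23.5% of all genes there, so their share lay near that of other genes of their level. The ERCC controls were called in 1 of 92 cases (1.09%). The share of variance between strains, the intraclass correlation of a strain's 2 arrays after diet, had a median of 0.226 over members. Over all genes its median was 0.155, and over genes above the median level it was 0.243. Of the 10 called carriers 9 were also called for diet, and Slc25a42 was the exception.

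Slc25a31 varied most consistently, with an intraclass correlation of 0.772 (adjusted p = 2.45e-08). Its strain means ran from 6.87 units in BXD63 over a median of 7.28 to 8.49 units in BXD48, a range of 1.62 units. BXD48 and BXD95 (8.39 units) lay at the top, above all other strains. Slc25a13 followed with 0.730 (adjusted p = 2.65e-06), from 11.29 units in BXD62 over a median of 11.78 to 12.22 units in BXD61. Both parents lay in the middle of its order. Slc25a35 reached 0.676 (adjusted p = 1.32e-05), from 9.13 units in BXD43 to 10.10 units in BXD99, and DBA/2J at 10.07 units lay next to the top. Slc25a40 reached 0.642 (adjusted p = 0.000101), from 9.31 units in BXD97 to 10.13 units in BXD69. Slc25a42 reached 0.607 (adjusted p = 0.000127), from 11.34 units in BXD70 over a median of 12.05 to 12.45 units in BXD66, a range of 1.10 units. C57BL/6J read 11.38 units on chow and 11.85 units on high fat diet for it, near the low end.

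The other called carriers varied less. Slc25a23 had an intraclass correlation of 0.475 (adjusted p = 0.0155), from 10.64 units in BXD61 to 11.33 units in BXD69. Slc25a36 had 0.447 (adjusted p = 0.0379), Slc25a38 had 0.422 (adjusted p = 0.0328), Slc25a28 had 0.398 (adjusted p = 0.041) and Slc25a20 had 0.386 (adjusted p = 0.0467). Slc25a20 ran from 12.17 units in BXD87 to 12.82 units in BXD71. The calls for Slc25a20, Slc25a28 and Slc25a38 ended with the 4 marker means as covariates or with BXD strains alone, and 7 carriers were called in each of those fits. The brightest 5 carriers (Slc25a11, Slc25a5, Slc25a4, Slc25a3 and Slc25a12) did not pass, with strain means spread over 0.271 to 0.438 units.

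**Figure D4:**
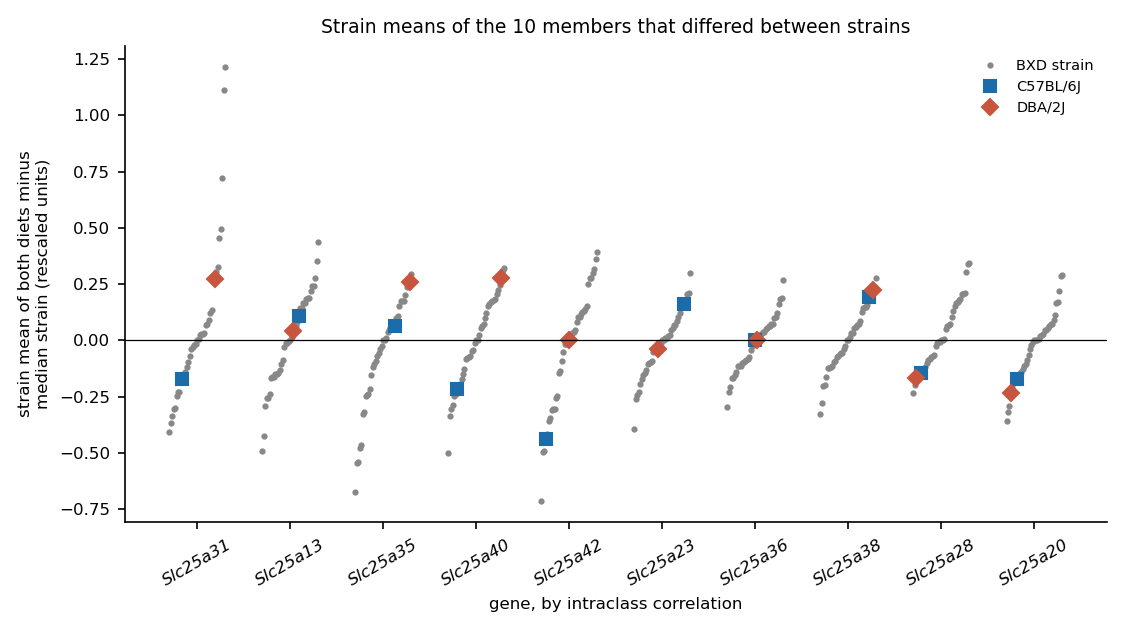
Mean of both diets for each of the 39 strains, in units above or below the median strain, for the 10 carriers that differed between strains (grey points for BXD strains, sorted within each carrier, a square for C57BL/6J and a diamond for DBA/2J). Slc25a31 spans 1.62 units with a few strains far above the rest, and DBA/2J lies above C57BL/6J for Slc25a40.

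Between the parents, 1 of the 46 carriers was called (2.17%), beside 2.36% of all genes, 1.28% higher in DBA/2J and 1.08% lower. Slc25a40 read 9.58 and 9.60 units in C57BL/6J on chow and high fat diet, and 10.02 and 10.15 units in DBA/2J. DBA/2J was thus higher on both diets, by 0.50 ± 0.14 units (SE from the model over all strains, limma adjusted p = 0.0368). With quantile normalization the difference was 0.45 units and narrowly missed the threshold (adjusted p = 0.0503). Other carriers had adjusted p of 0.237 or more, and 5 in all had an unadjusted p under 0.05. In the import machinery Timm22, the channel through which carriers enter the inner membrane, was 0.68 units higher in DBA/2J (adjusted p = 0.0063). Some cell markers differed between the parents' pools too. Of 7 adipocyte markers, Adipoq and Retn were called lower in DBA/2J, by 0.91 and 1.45 units (limma adjusted p = 0.0447 and 0.00263). Of 10 cardiomyocyte markers, Tnnt2 was called lower, by 0.35 units (limma adjusted p = 0.0158). Ucp1 was lower on both diets and was not called (limma adjusted p = 0.112). Each parent had 1 pool per diet, and the part of pool make-up in these parent differences was not tested.

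The third description was of carriers that ran together across strains. Means of the 2 arrays of each strain were correlated for the 595 pairs of the 35 carriers above the median level (permutation tests with 100000 draws, two-sided, Benjamini-Hochberg over the 595 pairs). By Pearson's r 22 pairs were called, 19 positive and 3 negative, and 19 of the 22 were also called by Spearman's rho. The called pairs had an absolute r of 0.492 or more, which held for 3.70% of the members' pairs and for 1.28% of all pairs of genes above the median level. That cut came from the members' own called pairs, so the 2 shares are a description and not a test. The share over all genes was not recomputed after quantile normalization. After quantile normalization 10 pairs were called, 8 of them shared with the 22. All 22 had the same sign on chow and on high fat diet taken singly. They were chosen by r over means of those same arrays, so this is not a separate test. Over the members' pairs r had a median of 0.056, and over all pairs of genes above the median level it was 0.024. A strain mean holds pool and array variation as well as strain, and of the carriers in the pairs named here Slc25a20, Slc25a23, Slc25a28 and Slc25a42 differed between strains by the test above. The arrays share tissue make-up and pool, and their part in these correlations was not tested beyond the atrial adjustment given here.

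Slc25a20 took part in 7 called pairs, and Slc25a11, Slc25a34 and Slc25a4 in 5 each. The highest correlation was between the glutamate carrier Slc25a22 and Slc25a34, r = 0.654 and rho = 0.635 over 39 strains (permutation p = 1e-05 and 2e-05, adjusted 0.00298 and 0.00595). It was 0.513 on chow, 0.778 on high fat diet, and 0.574 without the 2 strains farthest from the median of Slc25a22. In each pair the 2 strains left out were chosen on the first gene named, so outlying values of the second gene could remain. Slc25a20 ran with Slc25a22 at r = 0.643 and rho = 0.658 (permutation p = 1e-05 for both, adjusted 0.00298 and 0.00595), and at r = 0.581 without 2 strains. It also ran with the coenzyme A carrier Slc25a42, r = 0.584 and rho = 0.559 (permutation p = 0.00011 and 0.00031, adjusted 0.0109 and 0.0184), at r = 0.529 without 2 strains. Slc25a34 ran with Slc25a42 as well, r = 0.568 and rho = 0.614 (permutation p = 0.00026 and 8e-05, adjusted 0.0167 and 0.00952), at r = 0.511 without 2 strains. Slc25a20 with Slc25a34 was called too, and Slc25a22 with Slc25a42 was not, so 5 of the 6 pairs among these 4 carriers were called.

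A second set held bright carriers. Slc25a4 ran with Slc25a46 at r = 0.628 and rho = 0.626 (permutation p = 2e-05 and 3e-05, adjusted 0.00298 and 0.00595). It fell to r = 0.514 without 2 strains and to 0.511 after the strains' atrial marker mean was removed, and it was not called after quantile normalization (r = 0.488, permutation adjusted p = 0.076). Slc25a11 ran with Slc25a46 at r = 0.598 and rho = 0.562 (permutation p = 6e-05 and 0.00027, adjusted 0.00714 and 0.0179), and at r = 0.496 without 2 strains. After quantile normalization it was 0.318 and not called (permutation adjusted p = 0.485). The most negative pair was Slc25a5 with mitoferrin 2, Slc25a28, r = -0.629 and rho = -0.608 (permutation p = 2e-05 and 7e-05, adjusted 0.00298 and 0.00952). It was -0.579 without 2 strains and -0.651 after the atrial mean was removed. After quantile normalization it was -0.709 (permutation adjusted p = 0.00298). The other negative pairs were Slc25a23 with Slc25a46 at r = -0.544 and rho = -0.535 (permutation p = 0.00047 and 0.00056, adjusted 0.02 and 0.0222), and Slc25a4 with Slc25a24 at r = -0.542 and rho = -0.545 (permutation p = 0.00033 and 0.00056, adjusted 0.0179 and 0.0222). Without 2 strains they were -0.491 and -0.564, and after quantile normalization neither was called (r = -0.505 and -0.335, permutation adjusted p = 0.0531 and 0.454). Slc25a5 with Slc25a34 came next at r = -0.476 and rho = -0.473 and was not called (permutation p = 0.00218 and 0.00282, adjusted 0.054 and 0.0632), but was after quantile normalization (r = -0.546, permutation adjusted p = 0.0298).

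**Figure D5:**
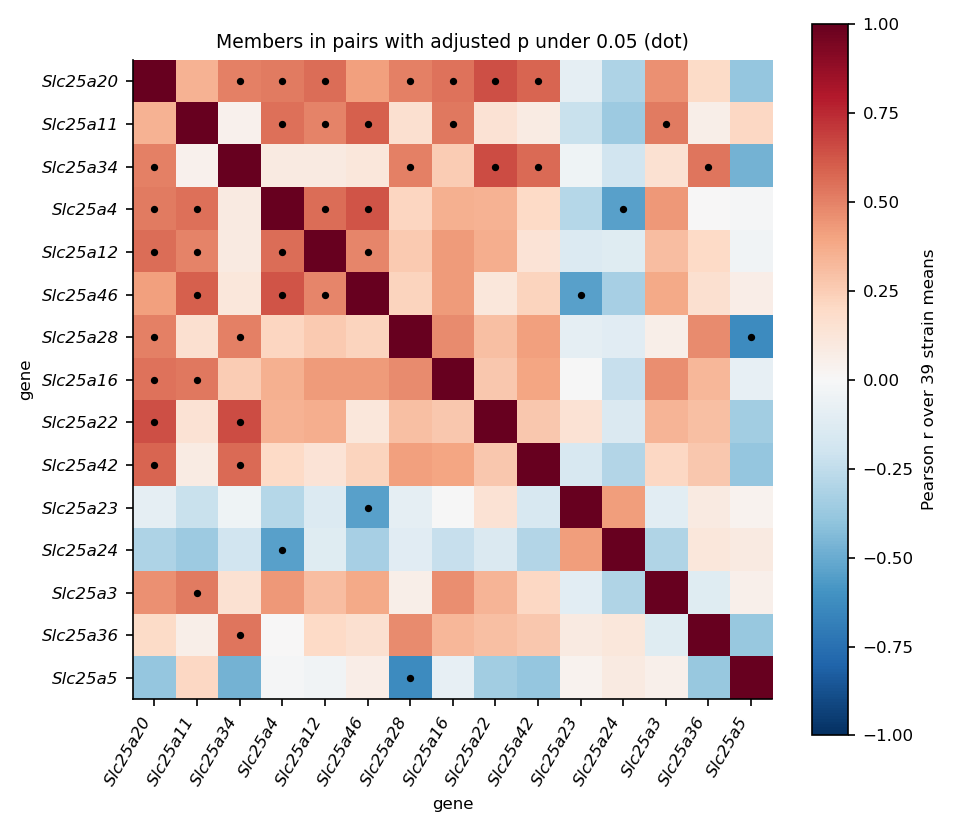
Pearson's r over the means of 39 strains for the carriers that took part in called pairs (red for positive, blue for negative, dots where the permutation adjusted p is under 0.05). Slc25a20 has 7 dots in its row, and the darkest blue cell joins Slc25a5 and Slc25a28 (r = -0.629).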

How the data were processed

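The 81 heart samples were measured on Affymetrix arrays. The deposited table gives every probe set a score, rescaled before deposit so that each array has mean 8 and SD 2, and no source used here names the base of the logarithm. Affymetrix Expression Console is named in the submitters' processing notes. The values were used as deposited. Of 25335 probe sets in GEO's annotation, 23521 name 1 gene and 1814 name several and were left out. Each gene took its probe set with the highest mean, which gave 22180 genes, with no filter on dim values. Diet was tested with limma 3.58.1 (R 4.3.3) on 78 arrays with strain and diet as terms. The strain labels pair the arrays, and deviations of a strain's 2 arrays correlated at a median of 0.248, over 0.1 in 37 of 39 strains. Strain and parent tests used the same model, and Benjamini-Hochberg adjustment ran over all genes at 0.05. The promoter sequences are RefSeq's. The fit was tested on simulated data, where diet shifts of 0.2 were called in 72 of 100 genes and shifts of 0.4 in 98 of 100. Of 21980 genes without a shift 12 were called there, whereas 37 of 92 ERCC controls were called on the real arrays. The simulated noise was independent between genes and few genes were shifted, so these shares need not hold for the real arrays. Shifts below 0.2 were not simulated. Precision is limited by how many arrays there are. The members, lists and tests were chosen with earlier results of these data known. Members named with values were up to 8 called rises and 8 called falls by size, the 8 called between strains with the highest intraclass correlation, up to 6 called between parents, the 8 brightest, those with a known role in heart, and the 6 highest and 4 lowest pairs. Slc25a24 and Slc25a30 were added after their values were seen. Of each partner list up to 3 genes were named by adjusted p, with any further called ones added likewise. Alternatives changed the normalization, genes, weights, covariates and strains.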

Additional observations from a re-analysis of the deposited data

How the results depend on the processing

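For diet, 10 other fits called 17 to 23 of the 46 carriers, beside 21, and no called carrier changed direction. Without strain as a replicate block, over 81 arrays, 17 were called, beside 40.9% of all genes. Slc25a24, Slc25a35, Slc25a38 and Slc25a40 were the calls that ended. With the cardiomyocyte mean as a covariate, added after seeing the data, 17 were called, beside 38.5% of all genes. Slc25a10, Slc25a11, Slc25a30, Slc25a40 and Slc25a44 were the calls that ended. With adipocyte, macrophage, fibroblast and endothelial means as covariates, also added after seeing the data, 7 were called, beside 19.3% of all genes. Leaving out each strain in turn gave 19 to 22 calls, and the calls that ended were those for Slc25a40 and Slc25a24, in 16 removals each, and Slc25a44, in 2. For strains, other fits called 7 to 12 carriers, beside 10. Slc25a31 was not tested in the fit restricted to genes at or above the median level. Between the parents, quantile normalization gave 0 limma calls in place of 1, with 6 carriers at an unadjusted p under 0.05. For pairs, quantile normalization called 10 of 595 in place of 22, of which 8 were shared, and the cause was not tested. After removal of the atrial mean 17 pairs were called, of which 14 were shared. With 1 pool per strain and diet, the spread of pools within a strain was not measured. Differences below about the 0.247 units seen for control probe sets are within what probes without a mouse target show, and signal over background was not analysed here.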

Other observations

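Slc25a47, a carrier that is known mainly from liver, did not pass for diet, but its arrays ran from 8.09 to 10.20 units around a median of 8.81. The highest, BXD96 on chow at 10.2 units, also had the highest level of albumin (Alb, 15.5 units against a median of 11.9). The next, BXD62 on chow, read 9.43 units for Slc25a47 and 14.9 units for Alb, second to BXD96 in both. The high fat array of BXD65 read 9.17 units for Slc25a47 with Alb at 8.90 units, near the bottom of the order for Alb. Whether liver RNA adds to the Slc25a47 level was not tested.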
